A study of Mus musculus with 6 samples.

Results

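Non-myocyte marker genes were examined for H3K27ac, the acetylated form of lysine 27 on histone H3, in cardiac nuclei that had been sorted for PCM-1, which marks those of cardiomyocytes. The set holds 46 of 21887 protein-coding genes, chosen by name as markers of other heart cells: 13 endothelial, 12 fibroblast, 9 mural (smooth muscle and pericyte) and 12 immune genes. A member had a peak when any peak of a library overlapped its RefSeq gene body plus 1 kb on each side by at least 1 bp. All 46 symbols matched the annotation. Positions are in mm10, and exons and introns were not separated here. Left ventricles were taken from FVB mice of 8 to 12 weeks, either wild type (WT) or homozygous (HOM) for a CRISPR deletion of Nppa and Nppb, which encode the natriuretic peptides ANP and BNP. There were 3 CUT&RUN libraries of each, named WT1 to WT3 and HOM1 to HOM3 by genotype and replicate number, and every library had its own peak list. The ends of the deletion and the number of founder lines are not in the labels, nor is it said whether the libraries came from separate mice, so p-values measure only the spread between these libraries, which may be technical. The sort for PCM-1 was common to both genotypes.

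H3K27ac marks active promoters and enhancers, so in a mixed tissue the genes of each cell type can carry it in the nuclei of that type. Endothelial cells line the vessels, fibroblasts make the collagen matrix, mural cells wrap the vessels, and macrophages are the main resident immune cells of the heart. A peak list holds no cell identity, so nuclei of another cell type and acetylation of the same gene in cardiomyocyte nuclei cannot be told apart here, and a list gives no share of nuclei.

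The 6 lists differed in length, and the number of genes of any kind with a peak differed with it. WT1, WT2 and WT3 held 21340, 72362 and 106605 peaks, and HOM1, HOM2 and HOM3 held 48102, 1462 and 15184, with no read depth given. As a check of the lists, 20 cardiomyocyte genes such as Myh6, Tnnt2 and Ryr2 were examined. A peak was found at 19, 20 and 20 of them in the WT libraries and 20, 0 and 20 in the HOM libraries. These counts cannot show how well the sort worked, since none of the 6 libraries is of unsorted nuclei. HOM2 had no peak at any of these cardiomyocyte genes, so its empty windows at other markers carry no information, and every value below that pools the HOM libraries includes it.

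Of the 46 non-myocyte markers, 20 had a peak in at least 1 library (43.5%, against 54.1% of all protein-coding genes) and 26 had none. By library, 3, 15 and 19 members had a peak in WT1, WT2 and WT3, and 9, 0 and 4 in HOM1, HOM2 and HOM3. These counts are 6.52%, 32.6% and 41.3% of the members in WT, where 20.3%, 42.4% and 52.4% of all protein-coding genes had one. In HOM they are 19.6%, 0% and 8.7%, where 32.9%, 1.84% and 15.8% of all genes had one. Over the 3 libraries of a genotype the members' share was 26.8% ± 18.1 for WT and 9.42% ± 9.8 for HOM (SD, n = 3 each), so the genotypes differed by less than the WT spread. In the 5 libraries other than HOM2 the members' share was below that of all genes and far below that of the cardiomyocyte genes. By cell type this was not uniform, and the endothelial and mural genes are given below with their own shares. The members are longer than the average gene (median 26.6 kb against 17.2 kb), and a longer window has more room for a peak. Only 9 members had a peak in at least 3 libraries (32.7% of all genes did): Pecam1 and Cspg4 in 5, Fbln1, Notch3 and Spi1 in 4, and Flt1, Erg, Gsn and Cd68 in 3.

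The length covered by peaks, which takes gene length into account, was also below that of all genes in the 5 libraries other than HOM2. Peaks covered 0.433, 5.61 and 11.6 bp per kb of the members' windows in WT1, WT2 and WT3, and 1.46, 0 and 0.422 bp per kb in HOM. Over all protein-coding genes the values were 4.43, 22.6 and 40.9 bp per kb in the WT libraries and 12.2, 0.0694 and 2.92 in the HOM libraries. Over the cardiomyocyte genes they were 13.7, 91.5 and 191 bp per kb in the WT libraries and 48.3, 0 and 10.6 in the HOM libraries. The order of members, all genes and cardiomyocyte genes was the same in the 5 libraries other than HOM2. No test was made of these differences, since the members were chosen with earlier results known.

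**Figure D1:**
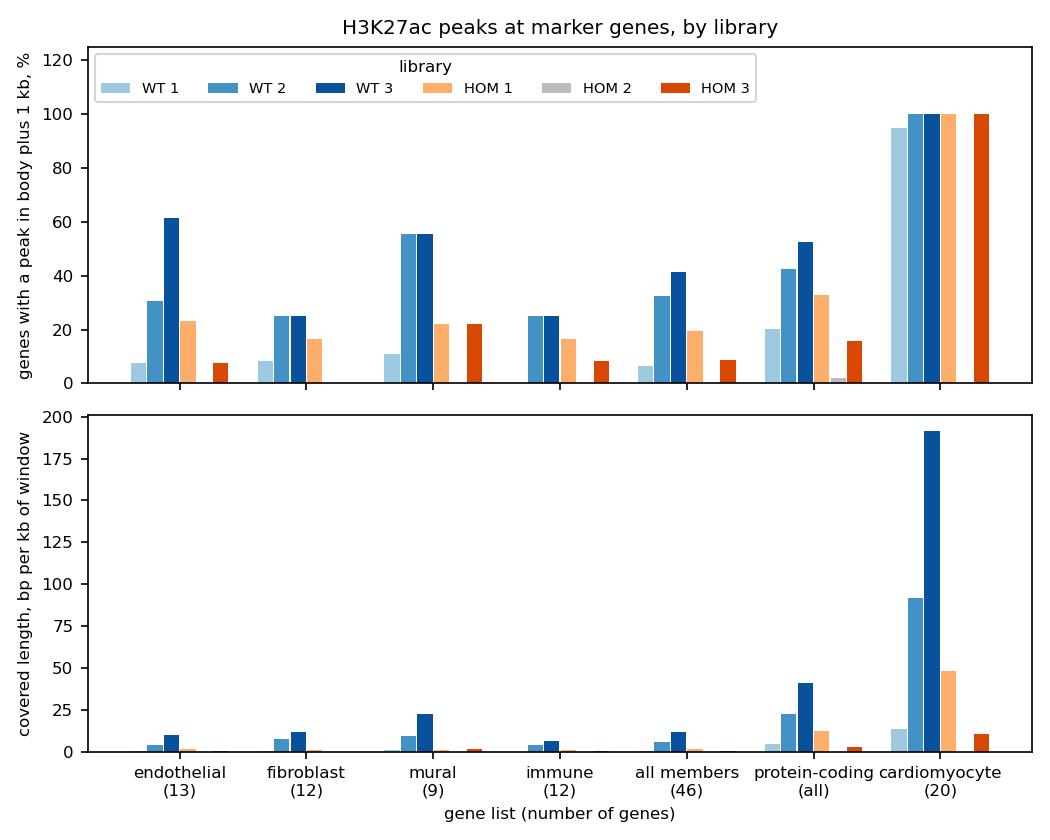
Bars give, per library, the percentage of genes with a peak in the gene body plus 1 kb (upper panel) and the covered length in bp per kb of window (lower panel) for each marker type, all 46 members, all protein-coding genes and 20 cardiomyocyte genes. The cardiomyocyte genes stand at 95% or 100% in 5 libraries and at 0% in HOM2, while the members reach 41.3% at most, in WT3.

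The peaks at these markers lay mostly inside the genes. Of 130 peaks counted over the 6 libraries, 107 lay more than 1 kb from both annotated gene ends and 23 lay within 1 kb of an end. Only 6 members had a peak at an end in any library (43.9% of all genes did), namely Acta2, Cspg4, Notch3, Cd68, Spi1 and Cd79a. None of the 13 endothelial and 12 fibroblast genes did. By library, 1, 5 and 6 members had a peak at an end in WT1, WT2 and WT3 (2.17%, 10.9% and 13% of members, against 11.5%, 31.8% and 42.2% of all genes). In HOM the counts were 3, 0 and 2 (6.52%, 0% and 4.35%, against 22.7%, 0.379% and 7.99%). WT3 alone gave 71 of the 130 peaks, and without it 46 peaks lay inside and 13 at an end.

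Promoters were examined on a finer scale. The RefSeq promoter windows of GRCm38.p6 span 300 bases, from upstream of each annotated start to just past it, and 29 of the 46 members matched, with 37 windows. The windows with a peak were those of Cspg4, Acta2 and a second start of Egfl7. That is 3 of 37 windows in any library (8.11%, against 33.5% of all windows). The counts were 1, 2 and 3 in WT1, WT2 and WT3 (3.57%, 17.8% and 31% of all windows) and 0, 0 and 1 in HOM (10.1%, 0.0847% and 2.64%). Of 26 windows of cardiomyocyte genes, 6, 16 and 22 carried a peak in the WT libraries and 12, 0 and 3 in the HOM libraries.

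**Figure D2:**
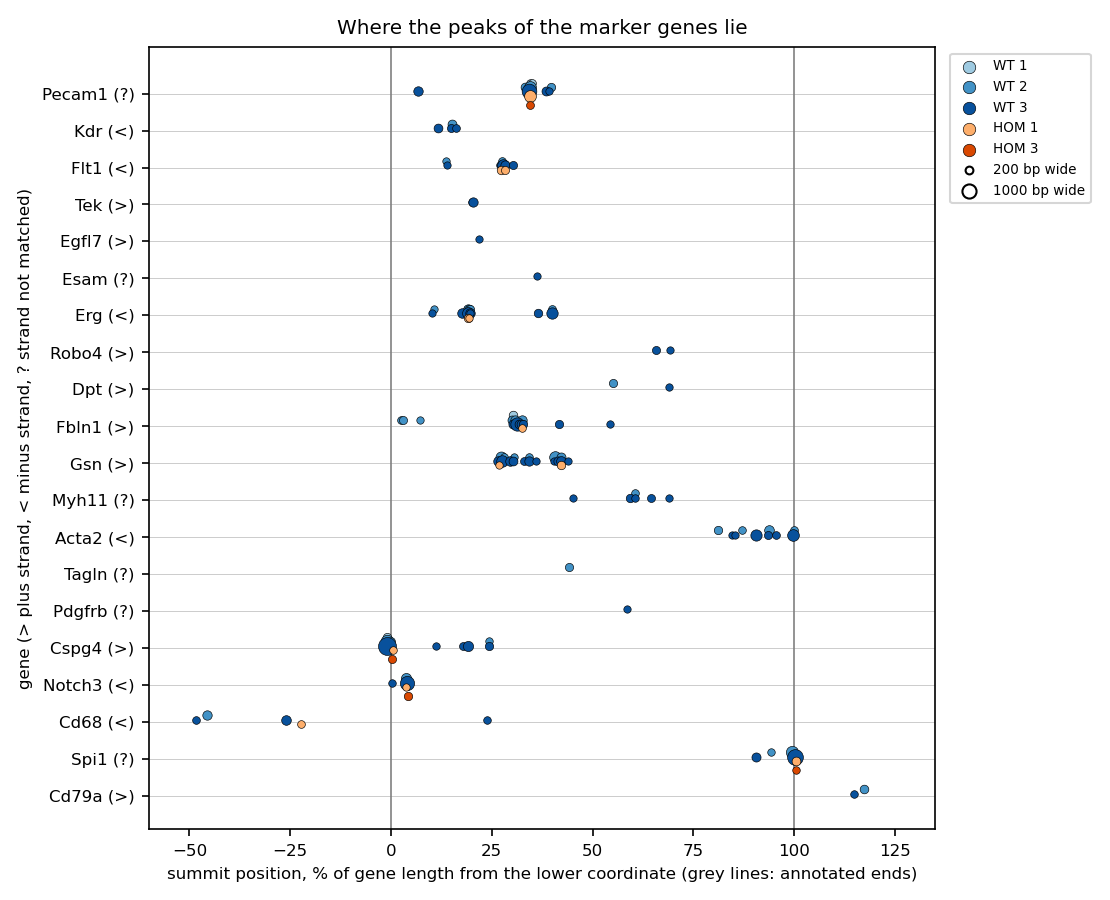
Each point is 1 peak of 1 library at the 20 members that had any, placed by its summit as a percentage of the gene's length from its lower coordinate, with point size growing with peak width. Points of the endothelial and fibroblast genes stack inside the gene, whereas Cspg4, Cd68, Spi1 and Cd79a have points at or beyond the grey lines that mark the annotated ends.

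Among the endothelial genes, 8 of 13 had a peak in at least 1 library (61.5%, against 54.1% of all genes), and all 47 of their peaks lay inside the genes. The median length of these genes was 42.9 kb. Cdh5 (VE-cadherin), Tie1 (a vascular receptor kinase), Emcn (a surface sialomucin), Sox17 (an arterial transcription factor) and Cldn5 (a tight junction protein) had no peak in any library. WT1, WT2 and WT3 had 1, 4 and 8 endothelial genes with a peak, and HOM1, HOM2 and HOM3 had 3, 0 and 1. The share was above that of all genes in WT3 (61.5% against 52.4%) and below it in the other libraries with a peak at these genes. By covered length the endothelial genes were below all genes in WT3 too, with 9.85 against 40.9 bp per kb of window.

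Pecam1 (CD31, an adhesion molecule of endothelial and blood cells, chr11:106654213-106715281) was the endothelial gene seen most often. Its peaks covered 378, 1198 and 1935 bp in WT1, WT2 and WT3, and 654, 0 and 209 bp in HOM. The 5 libraries with a Pecam1 peak shared 1 region, chr11:106674397-106675723, which is 20184 bp from the nearer end of the gene. The nearest other protein-coding gene, Tex2, was 60964 bp away. By fold the strongest peak of the region stood at percentile 15.5, 87.5 and 91.8 of the WT lists and at 46.6 and 4.37 in HOM1 and HOM3. The percentile is the share of a library's own peaks with a lower value of the authors' fold, with tied peaks placed at the middle of the tie. The region was thus among the stronger peaks in WT2 and WT3 and among the weaker ones in WT1 and HOM3.

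Erg, an ETS-family transcription factor of endothelium, spans chr16:95359169-95586600. It had peaks in 3 libraries, covering 1400 and 2761 bp in WT2 and WT3 and 424 bp in HOM1, and 0 bp in the other 3. These libraries shared 2 neighbouring regions, chr16:95402146-95402815 and chr16:95402960-95403782. They lay 56533 and 55566 bp from the nearest annotated start. The strongest peak of the former stood at percentile 57.6, 77.7 and 61.4 in WT2, WT3 and HOM1. Nearer a start, at 9279 bp, the region chr16:95449474-95450069 had peaks in WT2 and WT3, at percentiles 79.9 and 48.

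The receptors of vascular endothelial growth factor had peaks only far from an annotated start. Flt1, the receptor VEGFR1, had 366 and 1754 bp covered in WT2 and WT3, 495 bp in HOM1 and 0 bp in the other 3. In WT3 its leading peak was 626 bp wide and ranked 4828 of 106605 by fold (percentile 95.1), the highest of all 130 peaks at these markers. It lay at chr5:147607063-147607688, 118323 bp from the nearest annotated Flt1 start. Kdr, the receptor VEGFR2, had peaks in WT2 and WT3, covering 306 and 724 bp, and in no other library. Its peaks were 197 to 306 bp wide, at percentiles from 28.9 to 59. They lay at least 38082 bp from the Kdr start.

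The promoter window of Kdr is shown as an example of an endothelial start that carried no peak in any library, chr5:75978406-75978705 on the minus strand, 5′ to 3′. Capitals mark CCGCCC, the core of a GC box, and CCGGAA, a core of ETS factor sites, here on the other strand as TTCCGG.
Kdr: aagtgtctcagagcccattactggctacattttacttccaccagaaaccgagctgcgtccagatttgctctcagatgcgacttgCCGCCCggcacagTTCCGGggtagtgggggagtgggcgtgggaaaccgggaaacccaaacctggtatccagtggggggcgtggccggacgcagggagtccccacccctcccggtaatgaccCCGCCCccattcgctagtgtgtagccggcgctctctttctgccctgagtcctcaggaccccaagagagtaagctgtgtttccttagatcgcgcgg
CCGGAA was found in 1 of the 37 member windows, that of Kdr (2.7%, against 18.7% of all 21263 windows), and CCGCCC in 13 (35.1%, against 46.2%). A match is a run of letters only.

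The other endothelial genes with a peak had it in WT3 alone. Tek, the angiopoietin receptor, had 527 bp covered. Robo4, a guidance receptor of vessels, had 392 bp. Egfl7, a secreted vessel protein, and Esam, an endothelial adhesion molecule, had 1 peak of 162 bp each. The Egfl7 peak lay 179 bp from its second annotated start and stood at percentile 33.3. The Esam peak, at percentile 0.306, was among the weakest of its list.

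Among the fibroblast genes, 3 of 12 had a peak in at least 1 library (25%, against 54.1% of all genes), namely Fbln1, Gsn and Dpt. Without a peak in any library were the fibrillar collagens Col1a1, Col1a2 and Col3a1, the proteoglycans Dcn and Lum, the growth factor receptor Pdgfra, the transcription factor Tcf21, the microfibril gene Mfap5 and the collagen receptor Ddr2. WT1, WT2 and WT3 had 1, 3 and 3 fibroblast genes with a peak, and HOM1, HOM2 and HOM3 had 2, 0 and 0. All 36 fibroblast peaks lay inside the genes.

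Fbln1 (fibulin-1, a matrix glycoprotein, chr15:85205949-85286294) was the fibroblast gene seen most often. Peaks covered 275, 1623 and 2479 bp in WT1, WT2 and WT3, and 186, 0 and 0 bp in HOM. All 3 WT libraries shared a region 23935 bp from the start, chr15:85229943-85231235, and no HOM library had a peak there. HOM2 carries no information, HOM3 had a short list (15184 peaks), and the share of all regions with this pattern was not computed. HOM1 shared a neighbouring region, chr15:85231703-85232310, with WT2 and WT3. The strongest peaks of the shared WT region stood at percentile 71.5, 87.5 and 77.7.

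Gsn (gelsolin, an actin-severing protein found in many cell types, chr2:35256359-35307902) had the greatest covered length of any member in WT2 and WT3, though not in HOM1. It was 2055 and 3468 bp in WT2 and WT3, 429 bp in HOM1 and 0 bp in the other 3. The 2 regions seen in 3 libraries, chr2:35269870-35270952 and chr2:35277829-35278311, lay 3126 and 4069 bp from the nearest of the annotated Gsn starts, and the former lay within 1 kb of the lncRNA Gm39795. Dpt (dermatopontin, a matrix protein) had 242 and 167 bp in WT2 and WT3, at different places in the gene. Those peaks stood at percentiles 28.9 and 16.8.

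**Figure D3:**
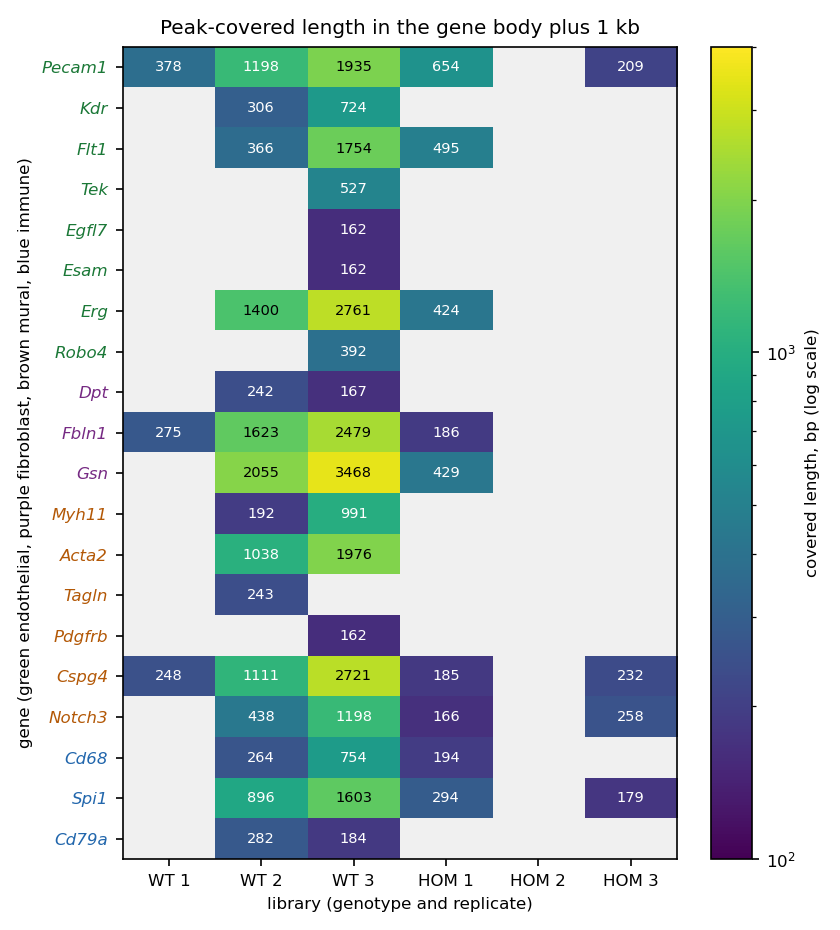
Each cell gives the bp covered by peaks in the gene body plus 1 kb for the 20 members with any peak (rows, coloured by cell type) in the 6 libraries (columns), and light grey means no peak. WT3 fills 19 of the 20 rows, HOM2 fills none, and the longest covered length is 3468 bp at Gsn.

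Among the mural genes, Cspg4 and Acta2 had peaks at a start. Of 9 genes, with a median length of 34.8 kb, 6 had a peak in at least 1 library (66.7%, against 54.1% of all genes), and Cnn1 (calponin, a smooth muscle protein), Rgs5 and Higd1b (both pericyte markers) had none. By library, 1, 5 and 5 had a peak anywhere in the window in the WT libraries and 2, 0 and 2 in the HOM libraries. The mural share was above that of all genes in WT2 (55.6% against 42.4%), WT3 (55.6% against 52.4%) and HOM3 (22.2% against 15.8%). It was below that of all genes in WT1 and HOM1. By covered length the mural genes were below all genes in WT2, WT3 and HOM3 as well. Peaks covered 9.54, 22.2 and 1.55 bp per kb of their windows there, against 22.6, 40.9 and 2.92 over all genes.

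Cspg4 (NG2, a surface proteoglycan of pericytes and glial precursors, chr9:56865104-56899870) had a peak within 1 kb of its start in 5 libraries. In the region chr9:56864038-56865737, peaks were 248, 937 and 1700 bp wide in all in WT1, WT2 and WT3, and 185, 0 and 232 bp in HOM. Percentiles of fold of the strongest peak were 71.5, 84.2 and 90.3 in the WT libraries and 46.6 and 18.3 in HOM1 and HOM3. The region was joined by the WT3 peak, and these peaks do not all lie at the same place. The WT1 peak ended 221 bp before the start, whereas that of HOM1 began 96 bp past it and that of HOM3 lay over it. The nearest other protein-coding gene, Odf3l1, was 3528 bp away. Of the 29 members with a start in the promoter table, Egfl7 and Acta2 also had a peak within 1 kb of a start, in 1 and 2 libraries.

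Acta2 (smooth muscle actin, also made by young cardiomyocytes and by activated fibroblasts, chr19:34240336-34255585) had peaks at its start in WT2 and WT3 and none in the other libraries. Together with the peaks inside the gene they covered 1038 and 1976 bp, against 0 bp in WT1 and in all HOM libraries. The peak nearest the start was 200 bp wide, 45 bp from it and at percentile 67.3 in WT2, and 638 bp wide, over it and at percentile 84.2 in WT3. WT1 is without it, so the genotypes overlap.

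The promoter windows of both genes are shown because these were the member starts with a peak in more than 1 library, Cspg4 at chr9:56864854-56865153 on the plus strand and Acta2 at chr19:34255324-34255623 on the minus strand, 5′ to 3′. Capitals mark CCGCCC and CATTCC, a core of TEAD factor sites, which reads GGAATG on the other strand.
Cspg4: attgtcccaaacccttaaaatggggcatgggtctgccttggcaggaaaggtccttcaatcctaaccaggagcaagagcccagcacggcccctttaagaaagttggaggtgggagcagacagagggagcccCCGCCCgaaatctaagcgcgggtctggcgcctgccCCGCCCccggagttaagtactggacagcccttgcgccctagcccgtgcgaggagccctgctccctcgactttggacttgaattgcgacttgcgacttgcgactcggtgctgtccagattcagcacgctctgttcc
Acta2: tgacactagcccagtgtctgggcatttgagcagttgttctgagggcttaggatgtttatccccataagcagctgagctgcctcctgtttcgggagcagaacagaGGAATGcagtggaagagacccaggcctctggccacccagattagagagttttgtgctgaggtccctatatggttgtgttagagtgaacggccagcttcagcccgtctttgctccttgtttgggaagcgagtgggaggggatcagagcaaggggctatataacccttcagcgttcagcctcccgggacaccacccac
The Cspg4 window holds CCGCCC at -120 to -115 and at -85 to -80, counted from the annotated start at 0. The Acta2 window holds CATTCC, printed as GGAATG, at -146 to -141, a run found in 5 of the 37 member windows (13.5%, against 13.6% of all windows). The CArG box, the 10-base site of serum response factor, in its strict form was in 0 of the 37 member windows and in 1.52% of all windows. The strict form is CC, a run of only A and T, then GG, and looser forms were not searched for. The Acta2 window holds ccctatatgg and ccttgtttgg, each 1 base off the strict form, so the 0 does not mean that it lacks such sites.

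Notch3 (a receptor of vascular smooth muscle, chr17:32120820-32166896) had peaks near the end of the gene farthest from its start. The region chr17:32122148-32123165 had 438 and 1018 bp in WT2 and WT3 and 166 and 258 bp in HOM1 and HOM3. It lay 1328 bp inside the lower end of this minus-strand gene, 43725 bp from the start, and within 1 kb of the lncRNA Gm38585. The percentile ranged from 18.3 in HOM3 to 86.6 in WT3. Myh11 (smooth muscle myosin heavy chain) had 192 and 991 bp in WT2 and WT3, in narrow peaks of 162 to 264 bp, at least 30355 bp from both gene ends. Tagln (transgelin, an actin-binding protein) had 243 bp in WT2 alone, in a peak 136 bp from the neighbouring gene Pcsk7. Pdgfrb (the receptor of pericytes for platelet-derived growth factor) had 162 bp in WT3 alone.

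Among the immune genes, 3 of 12 had a peak in at least 1 library (25%, against 54.1% of all genes), and all 3 had peaks at a gene end. Ptprc (CD45, the common leukocyte surface protein), the macrophage genes Csf1r, Adgre1, C1qa, C1qb, Cd14 and Fcgr1, the lysosomal gene Laptm5 and the T cell gene Cd3e had none in any library. By library, 0, 3 and 3 immune genes had a peak in the WT libraries and 2, 0 and 1 in the HOM libraries. Of 13 immune peaks, 11 lay within 1 kb of a gene end.

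Spi1 (PU.1, a transcription factor of myeloid and B cells, chr2:91082374-91115759) was the immune gene seen most often, and its upper end lies 2354 bp from Mybpc3, the gene of cardiac myosin-binding protein C. The region chr2:91115172-91116447 had 720 and 1276 bp in WT2 and WT3 and 294 and 179 bp in HOM1 and HOM3. These peaks ended 1667 to 2094 bp before the Mybpc3 start. In the same 4 libraries stronger peaks lay over or beside that start. By fold, the strongest at Mybpc3 stood at percentile 90.2, 97.1, 90.4 and 92.3, and those at the end of Spi1 at 79.9, 81.3, 29.2 and 18.3 in WT2, WT3, HOM1 and HOM3. WT1 had a peak before Mybpc3 (percentile 71.5) and none in the Spi1 window. Which gene the acetylation at the end of Spi1 belongs to was not tested.

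**Figure D4:**
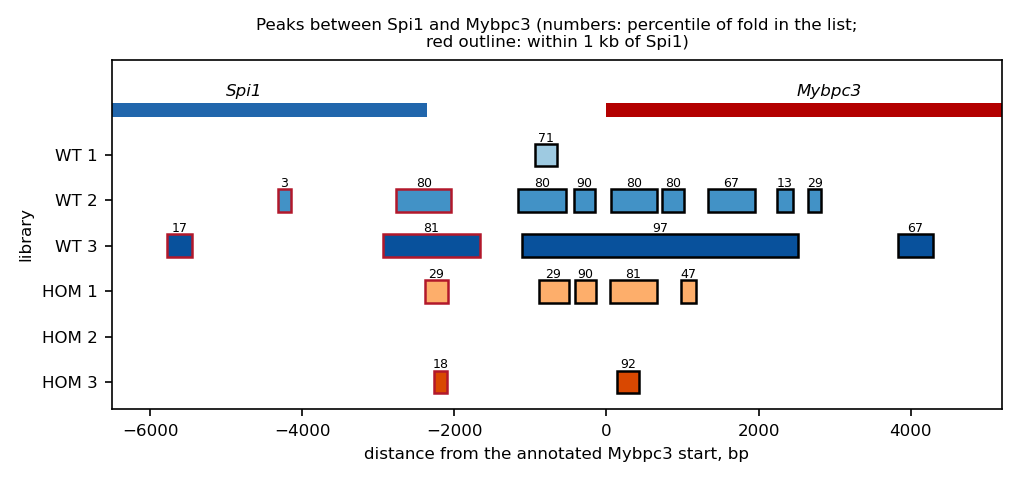
Boxes are peaks of each library by distance in bp from the annotated Mybpc3 start, with numbers giving the percentile of fold in the library's own list and red outlines for peaks within 1 kb of Spi1. The outlined peaks left of the Mybpc3 start have lower percentiles (3.38 to 81.3) than the strongest peak at Mybpc3 in the same library (90.2 to 97.1).

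The Mybpc3 promoter window, chr2:91117894-91118193 on the plus strand, is given 5′ to 3′ because it lies beside the recurrent Spi1 peak and itself carried peaks in WT2, WT3 and HOM1. Capitals mark CCGCCC, here on the other strand as GGGCGG.
Mybpc3: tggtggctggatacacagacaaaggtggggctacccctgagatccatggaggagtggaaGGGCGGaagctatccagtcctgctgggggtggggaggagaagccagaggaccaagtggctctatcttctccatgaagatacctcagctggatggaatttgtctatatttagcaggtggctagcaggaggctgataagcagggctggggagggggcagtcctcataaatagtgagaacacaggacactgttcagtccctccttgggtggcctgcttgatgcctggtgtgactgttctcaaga
It had 54.7% G and C, against a median of 54.7% in the 37 member windows and 56.3% in all windows.

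Cd68 and Cd79a were the other immune genes with peaks. Cd68 (a lysosomal protein of macrophages, chr11:69664213-69666170) is 1.96 kb long, so any peak in its window counts as being at an end. It had 264 and 754 bp in WT2 and WT3, 194 bp in HOM1 and 0 bp in the other 3. Its peaks were 185 to 386 bp wide, at percentiles from 13.4 in WT2 to 67 in WT3. They lay from 468 to 1958 bp from Mpdu1, and none was nearer than 1379 bp to the Cd68 start. In WT2 and HOM1 they lay outside the gene, beyond the end away from its start. With no flank, only WT3 had a peak on Cd68. Other peaks, outside the Cd68 window, lay on Mpdu1 itself in WT2, WT3 and HOM3. Which gene this acetylation belongs to was not tested. Cd79a (a subunit of the B cell receptor) had 282 and 184 bp in WT2 and WT3, beyond the upper end of the gene and 230 and 400 bp from Arhgef1. Over all members, 6 of 130 peaks lay within 1 kb of another protein-coding gene, and 2 members, Tagln and Cd79a, had no peak other than these.

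Within their lists, most of these peaks were weak to middling, and so were most peaks at the cardiomyocyte genes in WT2, WT3 and HOM1. The median percentile of fold of member peaks was 43.5, 44.7 and 33.3 in WT1, WT2 and WT3 (4, 39 and 71 peaks) and 54 and 18.3 in HOM1 and HOM3 (12 and 4 peaks). For peaks at cardiomyocyte genes it was 55.3, 44.7 and 48 in the WT libraries and 46.6 and 61.6 in HOM1 and HOM3. Neither set was uniformly above the other: the medians were equal in WT2, and the members' median was the higher one in HOM1. At percentile 50 or above were 2 of 4, 17 of 39 and 29 of 71 member peaks in WT. In HOM1 and HOM3 there were 6 of 12 and 0 of 4. For peaks at cardiomyocyte genes the counts were 49 of 96, 183 of 451 and 280 of 761 in WT. In HOM1 and HOM3 they were 107 of 275 and 37 of 72. The members' share was thus the larger one in WT2, WT3 and HOM1. In the upper 10% of a list by fold there were 3 member peaks, all in WT3, at Flt1, Pecam1 and Cspg4. Peaks at the cardiomyocyte genes in that upper part numbered 3 of 96, 38 of 451 and 50 of 761 in the WT libraries and 25 of 275 and 5 of 72 in HOM1 and HOM3, against 3 of 71 member peaks in WT3. Fold is the authors' value at the summit and says nothing of width.

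**Figure D5:**
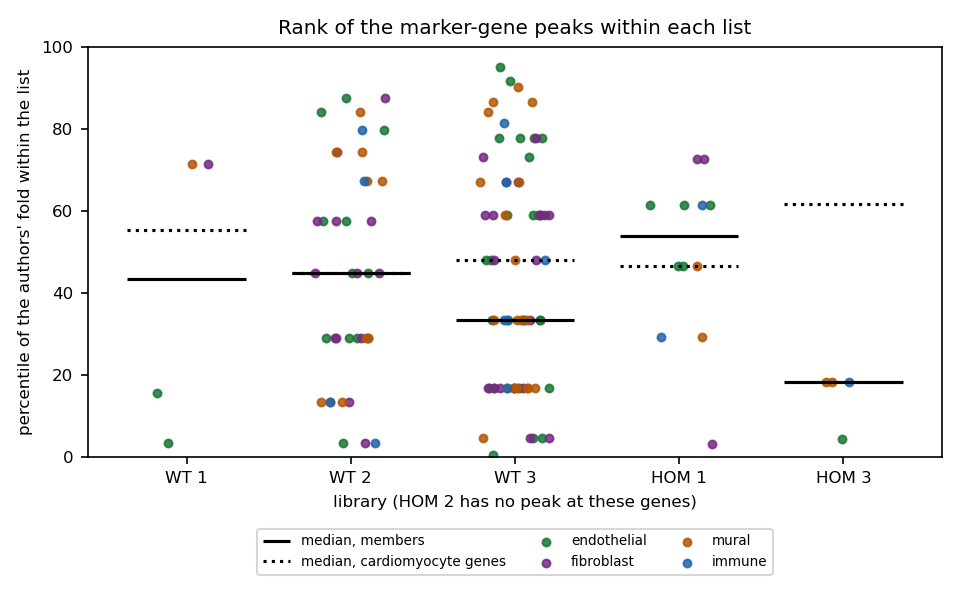
Points are member peaks by the percentile of the authors' fold within their library's list, coloured by cell type, with solid and dotted lines for the medians of member peaks and of peaks at 20 cardiomyocyte genes. Member peaks spread over nearly the whole range in WT2 and WT3, where the solid and dotted lines coincide at 44.7 and differ at 33.3 and 48, while the 4 in HOM3 lie at or below 18.3.

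The peaks of short lists repeated those of the longest. All 12 member peaks of HOM1, all 4 of HOM3 and all 4 of WT1 overlapped a peak of WT3 at the same gene. For all peaks of these lists the shares were 89.7%, 95.7% and 93.1%, so this is near the level of any peak. Merged over the 6 libraries, touching peaks formed 75 regions at the members, of which 48 were in 1 library, 17 in 2, 6 in 3, 2 in 4 and 2 in 5.

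Between genotypes, the covered length of each gene was compared per Mb of the library's covered length, with an exact two-sided permutation test and Benjamini-Hochberg adjustment over 11833 genes with a peak. With 3 libraries against 3 the smallest possible p is 0.1, so no gene could pass 0.05, and 0 did at an unadjusted p under 0.05. Fbln1 was the single member whose genotypes did not overlap, with 41.1, 51.3 and 44.5 bp per Mb in the WT libraries and 10.8, 0 and 0 in the HOM libraries. Its WT mean was 45.7 ± 5.21 and its HOM mean 3.6 ± 6.24 bp per Mb (SD over 3 libraries). The exact permutation p was the smallest possible, 0.1 (adjusted p = 0.879). In the WT direction 7.5% of all tested genes did not overlap, and 1 of 20 members with a peak is not above that. In the HOM direction it was 0.22% of genes and 0 members. No member had a peak in all 3 WT and no HOM libraries, a pattern of 1.04% of genes. Scaled in this way, Pecam1 was at 43 ± 11.7 bp per Mb in the WT libraries and 28 ± 24.6 in HOM, Cspg4 at 40.4 ± 7.44 and 20.6 ± 26.9, and Spi1 at 19 ± 16.5 and 18.8 ± 19.8 (SD, n = 3 each). These differences were smaller than the SD in HOM. Without HOM2, the HOM values of Pecam1 were 38 and 46 bp per Mb, inside the WT range of 34.8 to 56.5, and those of Cspg4 were 10.8 and 51.1, on both sides of the WT range of 35.1 to 48.9.

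With lists of equal length the members with a peak became few. When HOM2 was left out and each other list was limited to its 15184 strongest peaks by fold, 2, 5 and 5 members had a peak in the WT libraries and 2 and 4 in HOM1 and HOM3. The shares of all genes were then 16.6%, 18.7% and 22.3% in the WT libraries and 17.4% and 15.8% in HOM, and 17, 19 and 20 cardiomyocyte genes had a peak in the WT libraries and 18 and 20 in HOM1 and HOM3. Those in WT1 were Fbln1 and Cspg4, those in WT2 Pecam1, Erg, Fbln1, Cspg4 and Spi1, and those in HOM1 Fbln1 and Gsn. Those in WT3 were Pecam1, Flt1, Acta2, Cspg4 and Notch3, and those in HOM3 were Pecam1, Cspg4, Notch3 and Spi1. Cspg4 was among them in 4 of the 5 libraries and Pecam1 and Fbln1 in 3 each. Peaks tied in fold at the limit were kept in order of chromosome name and position. Erg and Spi1 in WT2, Acta2 and Notch3 in WT3, and Fbln1 and Gsn in HOM1 were kept only through such tied peaks. At equal length Fbln1 had no peak in WT3 and had one, tied at the limit, in HOM1, so its genotypes overlapped. Equal length does not equalise stringency: the lowest −log10 q kept ran from 1.2 in HOM3 to 10.7 in WT3.

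Further genes of the same cell types, from companion lists, had a peak in at least 1 library at 10 of 17 endothelial, 5 of 17 fibroblast, 3 of 12 mural and 4 of 19 immune genes. These are 58.8%, 29.4%, 25% and 21.1%, against 54.1% of all genes. By library the endothelial companions were near all genes in WT3 (52.9% against 52.4%) and below them in WT1, WT2, HOM1 and HOM3. By covered length they were below all genes in WT3 too (12.8 against 40.9 bp per kb of window). By that measure the mural companions were above all genes in WT1 (5.74 against 4.43), WT2 (23.04 against 22.64) and HOM1 (12.41 against 12.18). They were below in WT3 (37.5 against 40.9) and HOM3 (0.882 against 2.92). Of the endothelial companions, 1, 5 and 9 had a peak in the WT libraries and 4, 0 and 0 in the HOM libraries. The most recurrent was Ets1, a transcription factor of many cell types, in 4 libraries. The nitric oxide synthase gene Nos3 and the receptor gene S1pr1 had peaks in 3 each. Of the 7 Nos3 peaks, 4 also lay within 1 kb of Atg9b. Of the fibroblast companions, 1, 2 and 5 had a peak in the WT libraries and 2, 0 and 0 in the HOM libraries, led by the matrix gene Sparc in 4 libraries and Col5a1 in 3. Of the immune companions, 0, 3 and 4 had one in WT and none in HOM, with the integrin genes Itgam and Itgax and the GTPase gene Rac2 in 2 libraries each. Of the mural companions, 3, 3 and 3 had one in the WT libraries and 3, 1 and 1 in the HOM libraries. Those were Abcc9, a subunit of the ATP-sensitive potassium channel that cardiomyocytes also use, Mylk (a myosin kinase) and Smtn (smoothelin). Abcc9 had 2741, 8767 and 17540 bp covered in the WT libraries and 5287, 0 and 636 bp in the HOM libraries, more than any of the 46 members in each library with a peak there.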

How the data were processed

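H3K27ac CUT&RUN peak lists of 6 libraries were used, 1 per library. Per the submitters' processing notes, BWA, MACS2 and the build mm10 were used, and their versions are not given in the sources used here, nor are settings. The deposited lists have the columns of a narrow peak file: per peak, the authors' score, the fold ratio at the summit, and the −log10 of p and of q. The other deposited column, the summit offset in bp, was used to place summits. The fold was used only to rank peaks within its list. The lists hold no counts, so depth is unknown.

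Genes (chromosomes 1 to 19, X and Y) and promoter windows came from RefSeq, GRCm38.p6, the assembly that mm10 names. Positions are 1-based. Motifs were searched on both strands, and overlapping matches were kept. The titles gave each library's genotype and number. The members and lists were chosen with earlier results of these data known. Full statements were given for members with a peak in at least 3 libraries and for the strongest of each type, and up to 3 genes per other list, of which 1 is not reported here. Values per gene were compared with exact permutation tests. Alternatives were stronger peaks, equal list lengths, other flanks, other definitions of overlap, and libraries left out. In 200 simulated trials overlap and covered length had 0 mismatches. Replicate numbers were not taken as pairs. The tools were pandas 2.3.3, numpy 2.4.6, statsmodels 0.14.6, scipy 1.17.1 and matplotlib 3.10.9 under Python 3.11.15.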

Additional observations from a re-analysis of the deposited data

How the results depend on the processing

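The number of members with a peak followed the length of the lists. It was 20 over all libraries, 20 in WT and 9 in HOM. With the upper 50% of each list it was 13 over all, 13 in WT and 6 in HOM, and with a −log10 q of at least 5 it was 11, 11 in WT and 2 in HOM. Without HOM2 and with 15184 peaks per list it was 9 over all, 8 in WT and 6 in HOM, and with all lists at 1462 peaks it was 0, 0 in WT and 0 in HOM. With only 1 kb around gene ends it was 6, 6 in WT and 3 in HOM. Leaving out 1 library each gave 15 to 20 over all, 15 to 20 in WT and 4 to 9 in HOM, the 4 without HOM1. The peaks at a gene end ranged from 13 to 23 and those inside from 46 to 107, lowest without WT3. The percentile of fold was taken as the median over libraries of each library's median. It was 43.5 with the 5 libraries that had member peaks, and ranged from 38.4 to 44.1. These last 2 sets of omissions were chosen after the data were seen. Members higher in every WT library, 1 in all, were 2 with the upper 50% of each list (6.37% of all genes), 0 with 15184 peaks per list (7.21%), 2 unscaled (5.5%), and 1 to 8 with 1 library left out. It was 8 without WT1, where 35.5% of all genes met the pattern, and 2 without HOM3 (9.94%). Members higher in every HOM library and members with an adjusted p under 0.05 stayed at 0 throughout, by construction for the latter. With the replicate block, 1 member was higher in WT in all 3 pairs and 0 in HOM, and the smallest sign-flip p is 0.25. Over all genes the block raised the count higher in WT from 887 to 1577. Same-numbered libraries did not deviate together (r of -0.00527, -0.0652 and -0.239 across 11833 genes, on log2 of bp per Mb plus 1). No library correlated best with its own number. The cause of each change was not tested.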

Other observations

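Markers of cell types outside the 4 groups were examined as well. None of 8 adipocyte genes such as Adipoq and none of 7 epicardial genes such as Wt1 had a peak in the gene body plus 1 kb in any library. Of all protein-coding genes, 54.1% had one. The adipocyte genes are short, with a median of 9.62 kb against 17.2 kb for all genes, so their windows have less room for a peak. The median of the epicardial genes was 27 kb. Among glial and neuronal genes, the calcium-binding protein gene S100b had a peak in 5 libraries, covering 453, 1085 and 1725 bp in WT1, WT2 and WT3 and 773, 0 and 223 bp in HOM1, HOM2 and HOM3. The neuronal gene Rbfox3 had peaks in WT3 alone, covering 789 bp. The 8 S100b peaks lay near no other protein-coding gene.

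Some peaks lay just outside the windows of members. In WT1 and WT3 and HOM1, where Tagln had no peak, peaks lay on the neighbouring gene Sidt2 from 1575 to 2391 bp outside Tagln, at up to percentile 91.8 of fold. Around Cnn1 the nearest peaks were 3152 bp away in WT3 and 2976 bp in HOM1.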
